A study of Mus musculus with 309 samples.

Results

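The 41 genes described here code for the machinery that copies DNA in S phase, and they are 41 of the 55291 gene symbols in the deposited count table. They were taken by symbol, and each symbol had a row. By role they fall into 6 groups: 10 genes of origin licensing and helicase loading (Orc1, Orc6, Cdc6, Cdt1 and Mcm2 to Mcm7), 6 of helicase activation (Mcm10, Cdc45 and Gins1 to Gins4), 7 of the polymerases and primase (Pola1, Pola2, Prim1, Prim2, Pold1, Pole and Pole2), 10 of the clamp, clamp loader, single-strand binding protein and Okazaki fragment processing (Pcna, Rfc1 to Rfc5, Rpa1, Rpa2, Fen1 and Lig1), 4 of nucleotide supply (Rrm1, Rrm2, Tyms and Tk1) and 4 that restore chromatin and DNA methylation behind the fork (Chaf1a, Chaf1b, Uhrf1 and Dnmt1).

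The series holds poly(A) RNA sequencing of 309 frozen mouse mammary tumours from 24 models, which its title calls genetically diverse models of triple-negative breast cancer. Tumours were given trametinib (65 tumours of 22 models), erlotinib (66 of 22), carboplatin plus paclitaxel (66 of 22), anti-PD1 plus anti-CTLA4 antibodies (48 of 16) or were untreated (64 of 18), and 92 of the 100 groups of model and treatment held 3 tumours. Trametinib inhibits the kinases MEK1 and MEK2, erlotinib inhibits the EGF receptor kinase, carboplatin cross-links DNA, paclitaxel stabilises microtubules, and the antibodies block inhibitory receptors of T cells. The models 2224, 2225, 2250, 2336, 4T1 and 9263 had no untreated tumour and entered only the comparisons between treatments, E0771 had 1 untreated tumour, and K14-TRT (9 tumours) and KPB25L-APOBEC (1) were untreated only. The remaining models were MMTV-PyMT and MMTV-Neu, T12, T11 and T11-APOBEC, C3-TAG, p53RB-626, p53RB-624 and p53RB-426, 2208 and 2153, KPB25L-UV and KPB25L, and KPB1-B and KPB1-A. The names give the genotypes only in part: MMTV is the mouse mammary tumour virus promoter, which drives Neu or the polyoma middle T antigen in mammary epithelium, and TAG is the large T antigen of SV40. The labels used here give no strain, age, dose, schedule or number of animals, so p-values measure the spread between these tumours. In C3-TAG and MMTV-PyMT the untreated tumours had mean epithelial marker levels of 8.41 and 9.32 log2 CPM, while in T11, T11-APOBEC, T12, K14-TRT and p53RB-624 these markers stood between -0.28 and 1.56 log2 CPM.

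A cell licenses its origins in G1, when the origin recognition complex, CDC6 and CDT1 load the MCM2 to MCM7 ring onto DNA. In S phase CDC45 and the GINS complex turn that ring into an active helicase, polymerase alpha with its primase starts each strand, polymerases epsilon and delta extend it, and PCNA, loaded by the RFC complex, keeps them on the template. Many of these genes are transcribed when E2F factors are released from RB proteins at the end of G1, so that their RNA level is widely used as a sign of how many cells of a tumour are cycling.

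Promoters are shown because E2F-type letters, which the choice of genes did not use, stood in many of them. The windows run from 150 bases before the RefSeq transcription start to the base before it (build GRCm38.p6, written 5′ to 3′ on the strand of the gene). Capitals mark E2F-type letters (TTTGGCGC, TTTCCCGC, TTTGCCGC or TTTCGCGC on either strand) and CCAAT or its complement ATTGG; the 2 kinds may share bases. In Mcm5 the first capitals include the end of a match that begins before the window. The windows of Cdc6, Mcm5, Mcm6 and Orc1 of licensing and of Pola1 of the polymerases hold E2F-type letters, and that of the clamp loader gene Rfc1 holds neither motif, although CCAAT stands in the longer window counted below.
Cdc6, chr11:98908001-98908150, plus strand: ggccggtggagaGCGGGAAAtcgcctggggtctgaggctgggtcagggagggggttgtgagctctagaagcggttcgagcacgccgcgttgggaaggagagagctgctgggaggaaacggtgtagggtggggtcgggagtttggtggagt
Mcm5, chr8:75109359-75109508, plus strand: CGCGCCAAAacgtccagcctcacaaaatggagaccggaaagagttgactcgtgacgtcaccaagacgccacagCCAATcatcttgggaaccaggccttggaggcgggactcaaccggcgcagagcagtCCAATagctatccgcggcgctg
Mcm6, chr1:128359706-128359855, minus strand: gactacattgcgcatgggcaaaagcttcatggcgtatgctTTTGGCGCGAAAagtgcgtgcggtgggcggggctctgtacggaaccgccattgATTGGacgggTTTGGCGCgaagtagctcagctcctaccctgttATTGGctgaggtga
Orc1, chr4:108579304-108579453, plus strand: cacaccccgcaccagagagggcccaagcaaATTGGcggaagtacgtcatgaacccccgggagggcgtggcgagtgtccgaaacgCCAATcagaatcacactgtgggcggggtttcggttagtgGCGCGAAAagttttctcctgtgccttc
Pola1, chrX:93632156-93632305, minus strand: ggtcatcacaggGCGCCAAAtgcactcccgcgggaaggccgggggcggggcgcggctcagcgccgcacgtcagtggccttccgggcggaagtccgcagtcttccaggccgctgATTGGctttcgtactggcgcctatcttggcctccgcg
Rfc1, chr5:65335640-65335789, minus strand: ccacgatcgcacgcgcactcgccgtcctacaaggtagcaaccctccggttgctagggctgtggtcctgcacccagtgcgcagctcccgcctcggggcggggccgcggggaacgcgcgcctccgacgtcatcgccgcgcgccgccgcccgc

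The genes themselves span chr11:98907801-98923940 (Cdc6, plus strand), chr8:75109569-75128439 (Mcm5, plus strand) and chrX:93304767-93632155 (Pola1, minus strand), and Rfc4, described further on, chr16:23113943-23127737 (minus strand), in GENCODE M21 on mm10. The Cdc6 window lies within that span, and those of Mcm5 and Pola1 lie just before the gene. A promoter was found for 34 of the 41 genes. Over the 300 bases around each listed start (250 before it, 50 after), 15 of these (44.1%) held E2F-type letters, against 704 of all 27025 genes with a promoter in the table (2.6%) and 3.3% of the protein-coding ones. CCAAT stood in 22 of the 34 (64.7%), against 41.1% of all genes. By role, E2F-type letters stood in 7 of 9 promoters of licensing genes and in 0 of 4 of nucleotide supply genes, and Mcm10, Cdc45 and Chaf1a had none either. These counts are of letters in a window, not of bound factors.

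Total estimated counts ranged from 12.07 M to 226.2 M per tumour (M, mega), with medians of 39.26 M in trametinib, 34.28 M in erlotinib, 103.4 M in carboplatin plus paclitaxel, 112.9 M in antibody-treated and 76.88 M in untreated tumours. All 41 genes passed the filter on low counts in each comparison. Levels are in CPM, which sets every library to the same total, after scaling by trimmed means of M values (TMM). The deposited counts come from an estimate that shares reads between similar sequences, and over 90% of the values were not whole numbers for Pole2, Pcna, Uhrf1 and Mcm7 (99.4%, 95.8%, 93.5% and 91.6%), so their levels carry that uncertainty. Most exon bases of Fen1 (84.2%), Gins2 (67.3%) and Chaf1a (52.5%) also belong to other genes. These are Gm10143 and Tmem258 together for Fen1, Gse1 for Gins2 and Ubxn6 for Chaf1a. The strandedness of the libraries is not given in the sources used here. Libraries carry a running number whose meaning the labels do not give. Where treated and untreated tumours of a model lie far apart in that number, library number and treatment cannot be told apart. Values against adjacent untreated tumours (within 100 in library number) are given beside the results they change. Within models, counts against adjacent tumours and small counts in the other direction are given without the share of all genes called.

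Untreated tumours of different models differed in every one of the 41 genes (edgeR quasi-likelihood F-test over 16 models and 62 tumours, Benjamini-Hochberg adjusted p under 0.05; 98.9% of all genes tested were called). The mean of the 41 genes was 6.70 log2 CPM in C3-TAG, whose 4 tumours lay between 6.35 and 6.99. It was 6.37 in KPB1-A and 6.33 in K14-TRT (9 tumours, 6.156 to 6.497), and lowest in MMTV-Neu, at 5.05 (3 tumours, 5.03 to 5.08), and KPB25L, at 5.16 (4.81 to 5.38). Between these ends the models followed in small steps, from p53RB-624 (6.25), 2153 (6.11), p53RB-426 (6.08) and p53RB-626 (6.07) through KPB1-B (5.94), 2208 (5.81), T11 (5.61), T12 (5.53) and T11-APOBEC (5.51) to MMTV-PyMT (5.39) and KPB25L-UV (5.32). The tumours of neighbouring models overlapped in most places of this order, as the plot of untreated levels shows. In bulk tissue, fewer cycling cells and less RNA per cell cannot be told apart.

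**Figure D1:**
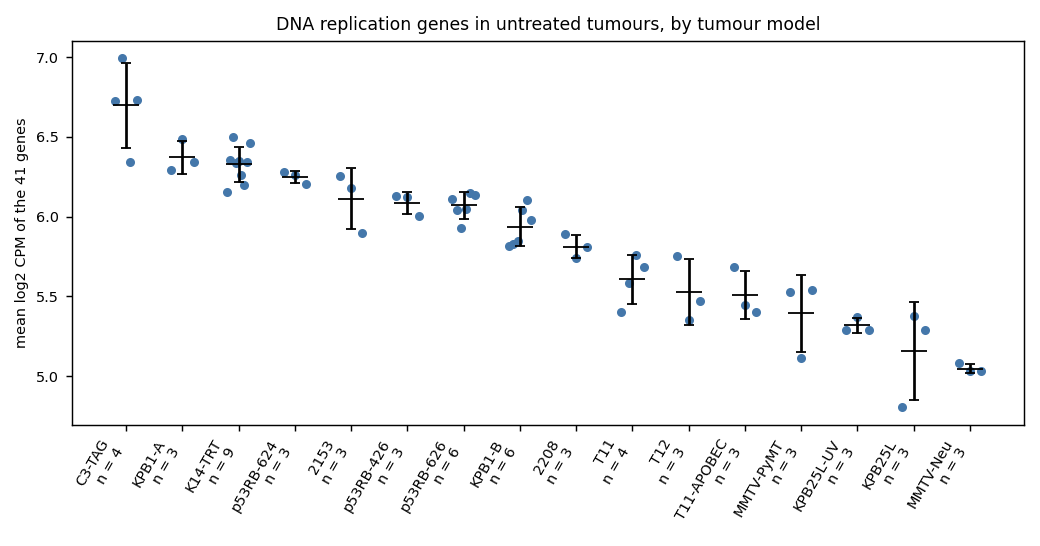
Mean log2 CPM of the 41 replication genes (vertical axis) in each untreated tumour (points) of the 16 models with at least 3 untreated tumours, with the mean (bar) and SD (whisker) of each model. C3-TAG lies highest at 6.70 and MMTV-Neu lowest at 5.05, and neighbouring models overlap.

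Against the mean of the other models, all 41 genes were higher in C3-TAG (30.8% of all genes were higher there) and 37 in K14-TRT (36.2%). KPB1-A had 27 genes higher, against 31.3% of all genes, and 4 lower, against 22.9%. The low end was MMTV-Neu, with 34 genes lower (25.3% of all genes) and 1 higher (34.4%). KPB25L had 32 lower (15.1%) and 2 higher (20.2%), and KPB25L-UV had 31 lower (16.5%) and 2 higher (19.8%). The widest span between models was that of Chaf1b, the middle subunit of the CAF-1 histone chaperone, at 9.65 times: its CPM was 81.1, 140, 80.3 and 156 in the 4 C3-TAG tumours and 7.903, 16.66 and 10.98 in the 3 KPB25L tumours. Orc1, the largest subunit of the origin recognition complex, spanned 9.00 times, with 26.7, 28.6, 17.5 and 20.5 CPM in C3-TAG and 2.18, 3.67 and 1.93 CPM in MMTV-Neu. Neither pair of groups overlapped, but each was picked as the highest and lowest model of its gene, so this adds no support. Rrm1, the large subunit of ribonucleotide reductase, spanned 2.16 times and Rfc1, the large subunit of the clamp loader, 2.17 times.

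Not every gene followed the order of the mean. Rfc3, a small clamp loader subunit, was highest in KPB1-A, with 166, 183 and 157 CPM. Rfc4, another small subunit, was highest in K14-TRT at a mean of 58.0 CPM and lowest in T12 at 9.61 CPM. Gins4 of the GINS complex was lowest in KPB1-A, at 22.8 CPM, where the mean of the 41 genes was among the highest. Over the 16 model means of log2 CPM, Pcna and Rpa2 were the most alike pair (Pearson r = 0.97), followed by Rfc2 and Rfc3 (0.96) and Orc1 and Cdc6 (0.96). Mcm6 had the highest median r with the other genes, at 0.78. Gins2, Orc6 and Gins4 had the lowest, at 0.15, 0.26 and 0.31. All points share the same untreated libraries, and these values are a description. Among the 6 subunits of the MCM ring, which are needed in equal number, levels per kilobase of exon lay within a median of 2.43 times of each other over the 309 tumours (1.36 to 4.8). Mcm2 was the lowest subunit in 282 tumours, with a median of 17.9 CPM per kilobase, while Mcm5, Mcm6, Mcm4, Mcm7 and Mcm3 had medians from 30 to 34.6 CPM per kilobase. The divisor is the union of a gene's annotated exons, 6956 bases for Mcm2 and at most 4666 for the others. Before that division the median of Mcm2 was 125 CPM and those of the others 117 to 147 CPM, so its place in this order rests on the length used.

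No gene separated T11-APOBEC from T11 in untreated tumours, where 0 of the 41 passed edgeR's test (0.593% of all genes were called), 2 had an unadjusted p under 0.05 and the median difference was -0.15 on the log2 scale. KPB25L-UV against KPB25L also gave 0 genes by edgeR, with 1.17% of all genes called, 2 at an unadjusted p under 0.05 and a median difference of 0.10. No other tool was run on these pairs.

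Trametinib was followed by lower RNA of the whole set. Over the 16 models with both arms (48 trametinib and 54 untreated tumours), all 41 genes fell (edgeR quasi-likelihood test with the model as a factor, adjusted p under 0.05), against 19.8% of all 23042 genes tested lower and 17.8% higher. The median log2 fold change was -0.52, and -0.01 over all genes. By role the medians were -0.61 for licensing, -0.53 for nucleotide supply, -0.53 for chromatin restoration, -0.49 for the polymerases, -0.47 for helicase activation and -0.34 for the clamp, its loader and processing. The order of the role medians was not tested. Against adjacent untreated tumours (11 models) 33 genes were lower (17.6% of all genes), with a median of -0.30, and with 1 difference per model 28 were (3.14%).

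Mcm5, a subunit of the helicase ring, had a lowest, median and highest CPM of 14.1, 93.7 and 288 in trametinib tumours and 58.0, 145 and 390 in untreated tumours. Its log2 fold change was -0.69 (SE 0.08, adjusted p = 1.87e-10), and its mean was lower in 16 of 16 models. Cdc6, which loads the ring with the origin recognition complex, had 2.40, 17.9 and 78.6 CPM in trametinib tumours and 10.7, 30.6 and 79.8 CPM in untreated tumours (log2 fold change -0.73, SE 0.09, adjusted p = 1.32e-09). Cdt1, its partner in loading, fell by 0.55 on the log2 scale (SE 0.07, adjusted p = 6.13e-09). The groups overlap when models are pooled. Models differ in untreated level, and the fall differed between them, as described below.

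The largest falls belonged to Mcm10, which helps to activate the helicase, and Pole, the catalytic subunit of the leading-strand polymerase. Mcm10 had 2.62, 19.6 and 72.8 CPM in trametinib tumours and 12.4, 33.1 and 78.1 CPM in untreated tumours (log2 fold change -0.73, SE 0.09, adjusted p = 8.83e-10). Pole had 7.92, 33.9 and 133 CPM in trametinib tumours and 19.2, 58.9 and 246 CPM in untreated tumours (-0.73, SE 0.09, adjusted p = 1.19e-09). Cdc45 fell by 0.60 (SE 0.08, adjusted p = 7.93e-10) and Pola1, the catalytic subunit of polymerase alpha, by 0.65 (SE 0.09, adjusted p = 3.03e-08). Rrm2, the S-phase subunit of ribonucleotide reductase, had 12.49, 51.38 and 124.5 CPM in trametinib tumours and 29.1, 81.2 and 167 CPM in untreated tumours (-0.69, SE 0.09, adjusted p = 8.53e-09). Uhrf1, which recognises newly copied DNA that lacks methylation on the new strand, fell by 0.66 (SE 0.08, adjusted p = 9.85e-10).

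The smallest falls were those of Gins4, Rfc1 and Rpa1, the large subunit of the single-strand binding protein. Gins4 had 15.1, 30.7 and 66.7 CPM in trametinib tumours and 16.1, 38.8 and 69.0 CPM in untreated tumours (-0.17, SE 0.04, adjusted p = 0.000444). Rfc1 fell by 0.18 (SE 0.05, adjusted p = 0.0015), with its mean lower in 12 of 16 models, and Rpa1 by 0.20 (SE 0.06, adjusted p = 0.00263), lower in 10. Pcna, the sliding clamp, stood in between, with 52.5, 106 and 483 CPM in trametinib tumours and 90.8, 172 and 394 CPM in untreated tumours (-0.51, SE 0.06, adjusted p = 7.93e-10; lower in 16 of 16 models).

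Genes around the replication machinery moved with it. Of 40 other replication genes, 30 fell and none rose, with Ticrr, which helps CDC45 onto the helicase, at -0.82. Of 24 genes of G1 to S control, 17 fell, E2f8 at -0.78 and Ccnd1 (cyclin D1) at -0.68 among them, and 2 rose, the kinase inhibitor gene Cdkn1b by 0.28 (adjusted p = 0.000609) and the RB relative Rbl2 by 0.13 (adjusted p = 0.0477). All 21 mitosis genes fell, Mki67 by 0.83. Markers of other cells moved too: 7 of 8 fibroblast markers rose, with a median log2 fold change of 1.00, 4 of 5 adipocyte markers rose, all 6 endothelial markers fell and 0 of 10 skeletal muscle markers were called by edgeR (2 at an unadjusted p under 0.05, 3 lower by DESeq2). The part of these cell types in the fall of the replication genes was not tested.

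The fall differed between models for all 41 genes (edgeR F-test of the interaction of model and treatment; 62.4% of all genes were called). Tested within each model, 242 of the 656 gene-by-model tests were lower (36.9%) and 7 higher (1.07%), against 9.01% and 8.55% over all genes. The model 2208 had 41 genes lower (20.4% of all genes there), T11 had 36 (17.1%) and MMTV-Neu 34 (12.8%). Next came 2153 with 33 (16.2%), MMTV-PyMT and T11-APOBEC with 29 each (23.0% and 11.7%), KPB1-B with 13 (7.78%), p53RB-624 with 12 (6.35%), E0771 with 11 (8%) and T12 with 2 (3.05%). E0771 had 1 untreated tumour, so its test assumes that this tumour varies like those of its other groups. KPB1-A, KPB25L, KPB25L-UV and C3-TAG had 0 genes called by edgeR (no other tool was run within models), with 0, 4, 3 and 1 genes at an unadjusted p under 0.05, and the mean change of 30, 41, 32 and 40 of the 41 genes was below 0 there.

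**Figure D2:**
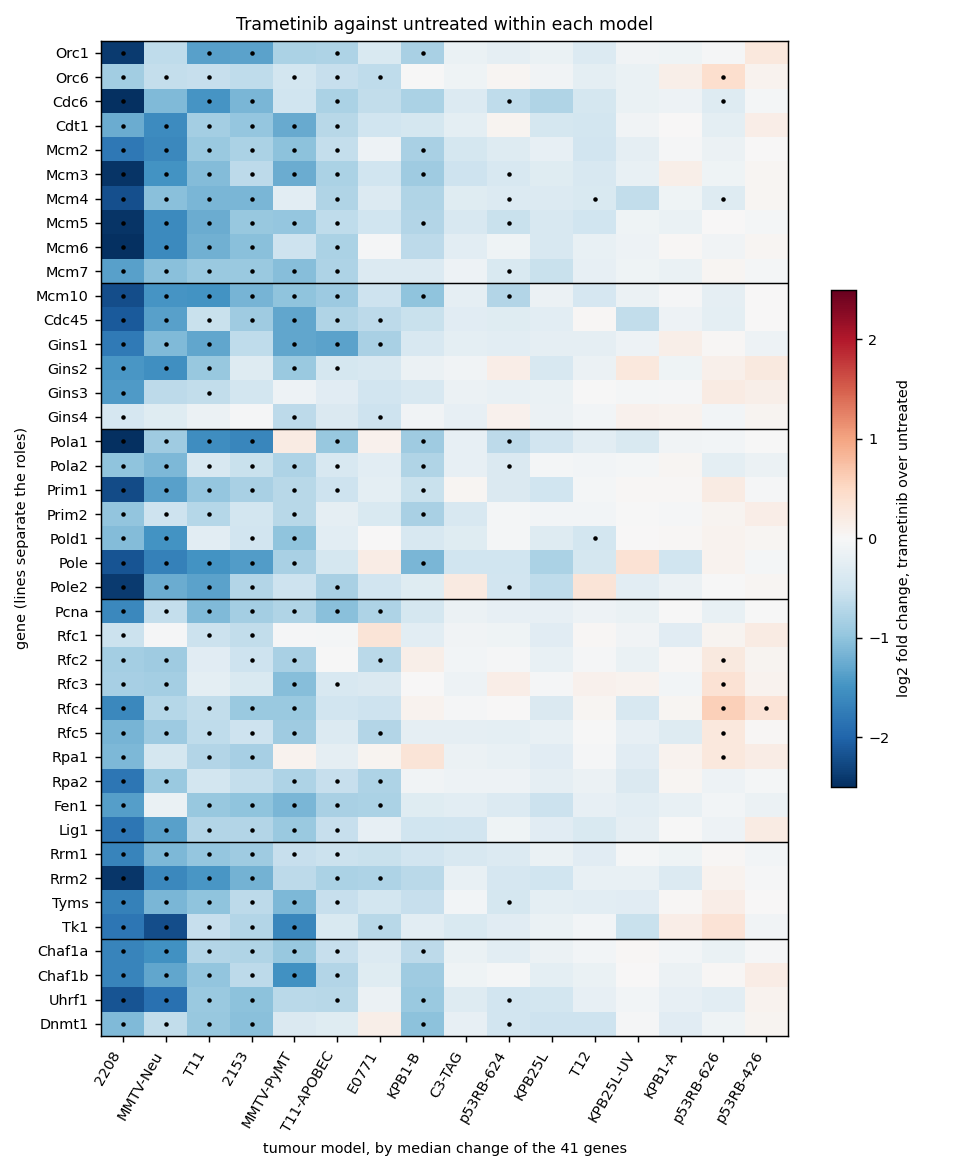
Log2 fold change of each of the 41 genes (rows, grouped by role) with trametinib against untreated within each of 16 models (columns, ordered by median change), with a dot where the adjusted p is under 0.05. Every gene of 2208 is marked, and the columns of p53RB-626 and p53RB-426 hold both signs.

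In 2208 the trametinib tumours stood far from all others of that model. Mcm5 had 21.3, 19.2 and 18.0 CPM in trametinib tumours and 121, 100 and 111 CPM in untreated tumours, means of 19.5 ± 1.64 and 111 ± 10.3 CPM (SD, n = 3 each). Cdc6 had 5.05, 3.87 and 4.45 CPM in trametinib tumours and 32.2, 25.4 and 29.3 CPM in untreated tumours (within-model log2 fold change -2.65, SE 0.13, adjusted p = 1.6e-08). The 2 groups did not overlap for either gene. Mcm6 fell by 2.62 (SE 0.10, adjusted p = 2.8e-09), with 27.8, 24.7 and 26.4 CPM in trametinib tumours and 181, 158 and 162 CPM in untreated tumours. Pola1 fell by 2.59, with 7.69, 5.30 and 6.88 CPM in trametinib tumours and 45.5, 39.8 and 37.9 CPM in untreated tumours. Rfc1 fell by 0.54 to 68.7, 53.1 and 57.3 CPM, against 97.6, 86.9 and 84.6 CPM in untreated tumours, and Gins4 changed least, at -0.42 (adjusted p = 0.00124). Library numbers of the trametinib tumours lay on average 477 below the untreated ones and none was adjacent. Summed fibroblast markers were 9490 to 12500 CPM in trametinib and 7970 to 12300 CPM in untreated tumours, and summed epithelial markers 3190 to 3870 and 2870 to 3100 CPM.

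In T11, Pola1 had the lowest fold change of the 41 genes, with 15.3, 11.1 and 12.8 CPM in trametinib tumours and 43.8, 38.9, 33.9 and 37.3 CPM in untreated tumours (-1.56, SE 0.18, adjusted p = 8.04e-05). Mcm5 had 42.5, 43.0 and 44.8 CPM in trametinib tumours and 87.0, 95.3, 116 and 113 CPM in untreated tumours. The groups did not overlap for either gene, and against adjacent untreated tumours 38 genes were lower, with a median change of -1.01. Gins4 did overlap, with 29.0, 31.4 and 36.6 CPM in trametinib tumours and 38.4, 29.8, 41.7 and 33.0 CPM in untreated tumours. Summed fibroblast markers were 28300 to 35600 CPM in trametinib and 8720 to 13100 CPM in untreated T11 tumours, and their part was not tested.

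In MMTV-Neu, Tk1, the thymidine kinase that salvages thymidine, had the lowest fold change, with 10.8, 7.49 and 15.4 CPM in trametinib tumours and 58.2, 50.4 and 54.4 CPM in untreated tumours (-2.21, SE 0.23, adjusted p = 0.000205). Mcm5 had 20.4, 14.1 and 32.1 CPM in trametinib tumours and 70.9, 71.9 and 68.5 CPM in untreated tumours. Neither gene overlapped between the groups. The TMM factors of these trametinib libraries were 0.579, 0.758 and 0.559, against 0.870 to 0.922 in the untreated ones. Summed fibroblast markers were 1770 to 2720 CPM in trametinib and 357 to 848 CPM in untreated MMTV-Neu tumours (8 of 8 higher in the mean), and summed epithelial markers 2560 to 3900 CPM in trametinib and 4200 to 5230 CPM in untreated tumours. Summed skeletal muscle markers were at most 4.40 CPM in trametinib tumours and at most 22.1 CPM in untreated tumours. The part of library scaling and of these cells was not tested. In 2153, Pola1 had 18.4, 17.6 and 12.9 CPM in trametinib tumours and 51.3, 61.6 and 44.0 CPM in untreated tumours (-1.63, SE 0.19, adjusted p = 8.12e-05). In MMTV-PyMT, Tk1 fell by 1.63 (SE 0.27, adjusted p = 0.000378) and Chaf1b by 1.51. None of these 3 models had an adjacent untreated tumour.

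In p53RB-426 and p53RB-626 the median change was near 0. In p53RB-426 Mcm5 had 238, 185 and 188 CPM in trametinib tumours and 212, 235 and 185 CPM in untreated tumours, and the groups overlapped. The median change over the 41 genes was 0.03, and 1 gene passed the test, Rfc4 at 0.34 (adjusted p = 0.0203). In p53RB-626 the median was -0.01, with 6 genes higher (9.20% of all genes were higher) and 2 lower. Rfc4 rose by 0.60 (SE 0.12, adjusted p = 0.00255), with 32.8, 25.8 and 24.8 CPM in trametinib tumours and 14.3, 17.7 and 23.1 CPM in untreated tumours at the lowest, median and highest. Orc6, the smallest origin recognition subunit, rose by 0.41, whereas Cdc6 fell by 0.33 and Mcm4 by 0.31. Against the 3 adjacent untreated tumours, 8 genes were higher and 5 lower.

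**Figure D3:**
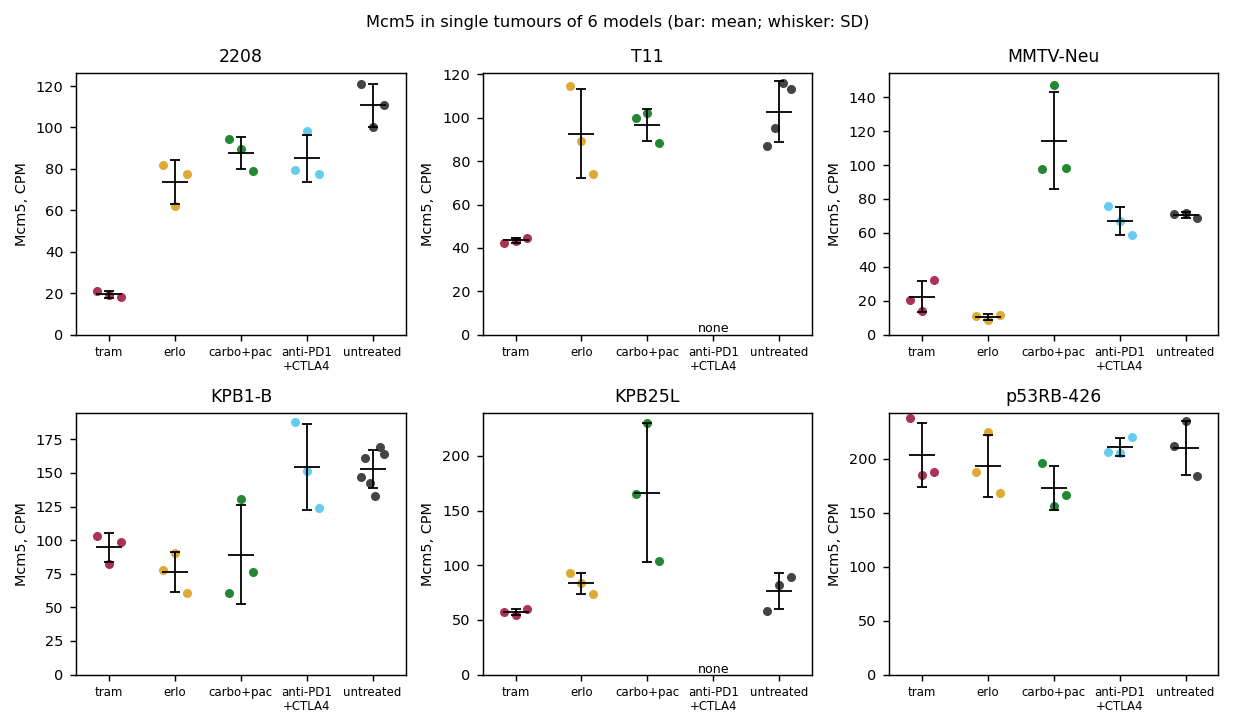
Mcm5 in CPM (vertical axis) in each tumour (points) of 6 models by treatment, with mean (bar) and SD (whisker). Trametinib tumours of 2208, T11 and MMTV-Neu lie below all untreated tumours of their model, while those of p53RB-426 overlap with them.

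With erlotinib, carboplatin plus paclitaxel or the antibodies, fewer of the 41 genes passed the test over models than with trametinib. These comparisons share their untreated tumours, so they are not independent of each other.

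**Figure D4:**
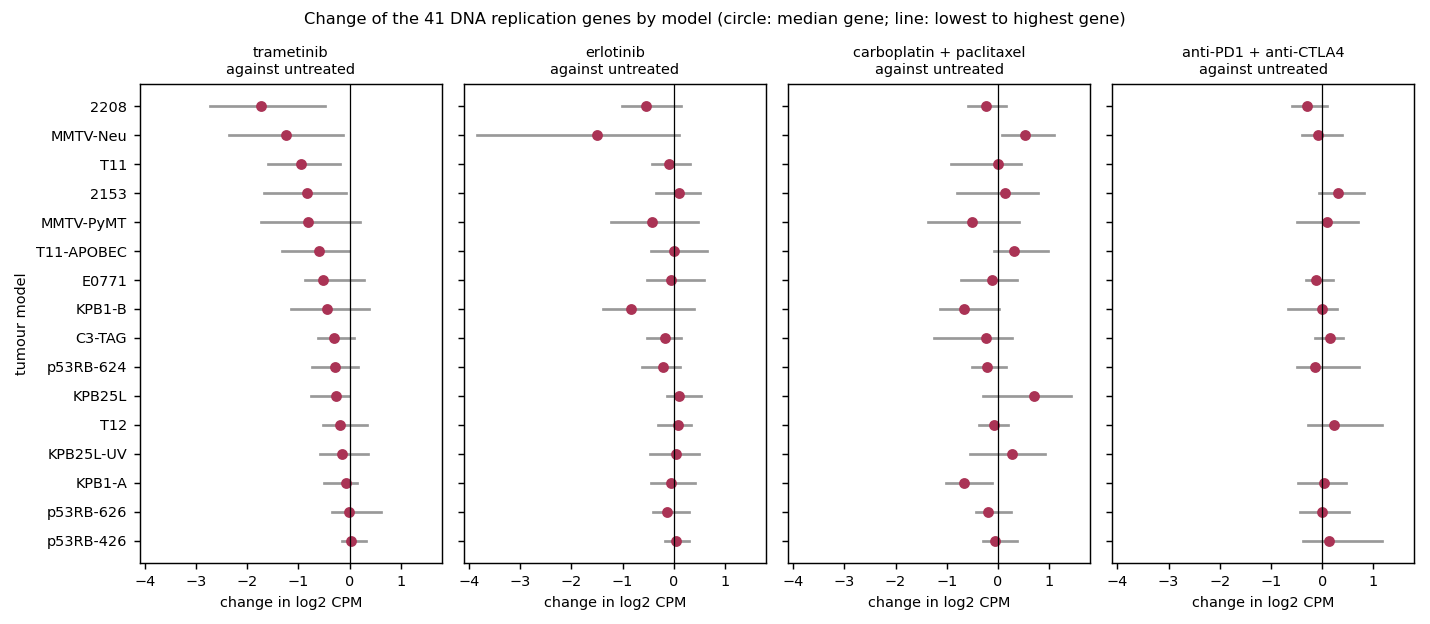
Change of the 41 genes in each model for the 4 treatments against untreated, as differences of mean log2 CPM: circles are the median gene and lines run from the lowest to the highest gene. Trametinib in 2208 has the lowest median among the trametinib values (-1.73), and the lines of erlotinib in MMTV-Neu reach lowest (-3.85, Tk1).

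With erlotinib, 32 of the 41 genes fell over 16 models (48 erlotinib and 54 untreated tumours), against 6.11% of all genes lower and 5.77% higher, with a median log2 fold change of -0.23. This count rested on few models: it was 14 without MMTV-Neu (4.44% of all genes lower) and 4 without MMTV-Neu and KPB1-B (2.81%). It was 4 in the 11 models with adjacent untreated tumours (5.27% of all genes lower). It was also 8 without the tumours of replicate 3 (2.07%) and 12 without those of replicate 2 (2.51%). With 1 difference per model (limma) or no model term (edgeR) it was 0 (0% and 0.212% of all genes lower). There 8 and 6 genes had an unadjusted p under 0.05. Rrm2 fell most, with a lowest, median and highest CPM of 5.28, 68.3 and 158 in erlotinib tumours and 29.1, 81.2 and 167 in untreated tumours (-0.39, SE 0.11, adjusted p = 0.00793). Mcm5 had 8.59, 114 and 240 CPM in erlotinib tumours and 58.0, 145 and 390 CPM in untreated tumours (-0.37, SE 0.08, adjusted p = 0.00173). Tk1 fell by 0.36 (adjusted p = 0.0142), Cdc6 by 0.33 (adjusted p = 0.009), Cdc45 by 0.33 (adjusted p = 0.00115) and Uhrf1 by 0.33 (adjusted p = 0.0225). Cdt1 fell by 0.21 (adjusted p = 0.0223). The smallest called changes were Rfc3 at -0.15, Pcna at -0.15 (adjusted p = 0.025) and Pold1, the catalytic subunit of the lagging-strand polymerase, at -0.17. Pola1 (-0.19, adjusted p = 0.117), Rfc1 (-0.07, adjusted p = 0.355) and Rpa1 (-0.06, adjusted p = 0.336) did not pass, nor did Gins2, Gins4, Rfc2, Rfc4, Pole2 and Orc6. Of the other lists, 17 of 40 other replication genes, 6 of 24 genes of G1 to S control and 19 of 21 mitosis genes fell.

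The response to erlotinib differed between models for 40 genes (58.0% of all genes). Within models, 121 tests were lower (18.4%) and 2 higher (0.305%), against 5.24% and 5.52% over all genes. MMTV-Neu had 39 genes lower (19.7% of all genes), KPB1-B 30 (14.8%), 2208 28 (13.7%), MMTV-PyMT 21 (20.5%) and p53RB-626 3 (1.5%). The 2 higher genes were Pcna and Rfc4 in p53RB-426, at 0.22 and 0.30.

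In MMTV-Neu the fall was steep and uneven. Tk1 had 3.91, 3.61 and 3.42 CPM in erlotinib tumours and 58.2, 50.4 and 54.4 CPM in untreated tumours (-3.78, SE 0.25, adjusted p = 1.3e-05). Rrm2 had 6.36, 5.64 and 5.29 CPM in erlotinib tumours and 83.9, 58.9 and 85.5 CPM in untreated tumours, and Uhrf1 9.55, 6.87 and 10.8 CPM in erlotinib tumours and 109, 97.6 and 99.5 CPM in untreated tumours. All 3 erlotinib tumours lay below all untreated ones for these genes. The clamp loader gene Rfc2 was the 1 gene of 41 whose mean was not lower, with 30.4, 67.6 and 64.9 CPM in erlotinib tumours and 47.5, 49.6 and 48.1 CPM in untreated tumours. These tumours also differed in their makeup of markers. Summed skeletal muscle markers were 6.19, 18400 and 330 CPM in the 3 erlotinib tumours and at most 22.1 CPM in untreated tumours, with 10 of 10 markers higher in the mean. Summed macrophage markers were 3400, 16900 and 16000 CPM in erlotinib tumours and 399 to 880 CPM in untreated tumours (8 of 8 higher), and the second had summed epithelial markers of 315 CPM, against 4200 to 5230 CPM in untreated tumours. Mcm5 was low in all 3, at 11.03, 8.587 and 11.51 CPM, against 68.5 to 71.9 CPM in untreated tumours. The first had muscle markers at the untreated level, while its macrophage markers stood above it and its fibroblast markers summed to 1830 CPM, against 357 to 848 CPM in untreated tumours. The part of these cells in the fall was not tested.

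In KPB1-B the erlotinib tumours had Mcm3 at 104, 129 and 76.9 CPM, below all 6 untreated tumours, whose lowest, median and highest were 239, 263 and 306 CPM (-1.37, SE 0.24, adjusted p = 0.00131). Dnmt1, the maintenance DNA methyltransferase, fell by 1.36 and Uhrf1 by 1.35. Against adjacent untreated tumours 33 genes were lower. Summed skeletal muscle markers were 4500, 10500 and 440 CPM in erlotinib tumours and 5.53 to 1220 CPM in untreated tumours, and the part of muscle in the result was not tested. In 2208, Pola1 fell by 0.92 (SE 0.17, adjusted p = 0.00151), with 23.2, 17.6 and 21.2 CPM in erlotinib tumours and 45.5, 39.8 and 37.9 CPM in untreated tumours, and Rrm2 fell by 0.80. In T11, where trametinib tumours were low, Mcm5 with erlotinib overlapped with untreated tumours, at 115, 89.3 and 74.1 CPM against 87.0, 95.3, 116 and 113 CPM. There edgeR called 0 genes and 2 had an unadjusted p under 0.05.

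Carboplatin plus paclitaxel moved few genes in one direction over models. Of the 41 genes, 5 fell (9.33% of all genes were lower, 15.8% higher) over 48 treated and 54 untreated tumours, and the median log2 fold change was -0.08. The 5 were Pole2, the second subunit of polymerase epsilon (-0.22, SE 0.06, adjusted p = 0.0061), Uhrf1 (-0.21, SE 0.08, adjusted p = 0.0451), Mcm2 (-0.21, SE 0.07, adjusted p = 0.0225), Dnmt1 (-0.20, SE 0.08, adjusted p = 0.0446) and Mcm4 (-0.17, SE 0.07, adjusted p = 0.0413). Mcm2 had 36.7, 123 and 249 CPM in treated tumours and 54.3, 150 and 428 CPM in untreated tumours at the lowest, median and highest. Pole2 had 4.86, 11.8 and 24.2 CPM in treated tumours and 5.83, 15.2 and 29.0 CPM in untreated tumours. These ranges overlap over most of their length. Of the markers of other cells, 6 of 8 of macrophages, 5 of 8 of T and NK cells, 4 of 6 of endothelial cells, 3 of 8 of fibroblasts and 3 of 5 of B cells rose, and their part was not tested. The count was 20 in the 7 models with adjacent untreated tumours (6.25% of all genes lower). It was 14 without MMTV-Neu (10.4%) and 1 without KPB1-A and KPB1-B (10.7%), where 1 gene was higher (13.2% of all genes higher). It was 0 without the tumours of replicate 1 or of replicate 3 (4.04% and 5.13% of all genes lower). There 5 and 2 genes had an unadjusted p under 0.05 by edgeR.

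Mcm5 (-0.18, adjusted p = 0.105), Pola1 (-0.19, adjusted p = 0.0988), Cdc6 (-0.15, adjusted p = 0.161), Rrm2 (-0.08, adjusted p = 0.5), Pcna (-0.08, adjusted p = 0.359), Rfc1 (-0.01, adjusted p = 0.89), Cdt1 (-0.01, adjusted p = 0.954), Cdc45 (0.03, adjusted p = 0.82) and Rpa1 (0.09, adjusted p = 0.169) did not pass. Among genes of G1 to S control, 9 of 24 fell and 2 rose. The larger rise was that of Cdkn1a, the p53-induced kinase inhibitor p21, by 1.47 (adjusted p = 2.2e-15). Of the mitosis list 1 of 21 genes fell, Mki67 at -0.37.

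Models went opposite ways with carboplatin plus paclitaxel. The change differed between models for 39 genes (51.3% of all genes), and within models 64 tests were lower (9.76%) and 32 higher (4.88%), against 5.67% and 5.73% over all genes. MMTV-PyMT had 23 genes lower (20.5% of all genes were lower there) and KPB1-B had 22 (7.30%), whereas KPB25L had 19 higher (9.82%). T11-APOBEC had 5 higher (6.33%), p53RB-626 7 lower (5.57%) and 1 higher, and p53RB-426 1 higher. The model 2153 had 5 higher (18.7%) and 2 lower, and T11 had 4 lower (16%) and 1 higher. In 2153 and T11 the larger count was a smaller share of the set than was called among all genes. These counts therefore give no direction of the set in 2153 or T11.

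In KPB25L, Mcm5 had 166, 230 and 104 CPM in treated tumours and 58.0, 81.7 and 89.0 CPM in untreated tumours. Rpa2, the middle subunit of the single-strand binding protein, had 45.4, 83.5 and 33.7 CPM in treated tumours and 18.1, 20.0 and 19.1 CPM in untreated tumours (1.5, SE 0.29, adjusted p = 0.00836). Cdt1 had 130, 164 and 112 CPM in treated tumours and 39.4, 86.4 and 56.4 CPM in untreated tumours (1.14, SE 0.31, adjusted p = 0.029). The groups did not overlap for these genes. Library numbers of the treated tumours averaged 1502 above the untreated ones, so that number and treatment cannot be told apart in KPB25L.

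In MMTV-PyMT, Gins1 of the GINS complex had 4.64, 6.61 and 7.45 CPM in treated tumours and 17.5, 14.2 and 16.4 CPM in untreated tumours (-1.37, SE 0.30, adjusted p = 0.00294). Chaf1b had 17.9, 20.7 and 22.4 CPM in treated tumours and 58.6, 43.2 and 43.5 CPM in untreated tumours. Neither gene overlapped. Summed macrophage markers were 1410 to 1450 CPM in treated and 463 to 575 CPM in untreated MMTV-PyMT tumours, and summed fibroblast markers 4450 to 7690 and 806 to 2960 CPM. In KPB1-B, Mcm2 had 83.0, 162 and 99.4 CPM in treated tumours and a lowest, median and highest of 199, 237 and 268 CPM in untreated tumours (-1.08, SE 0.21, adjusted p = 0.00793). Against adjacent untreated tumours 26 genes were lower there. Skeletal muscle markers were higher in the mean of treated than of untreated tumours for 10 of 10 in KPB1-B (sums of 43.8 to 1750 and 5.53 to 1220 CPM). The part of these cell types was not tested.

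In MMTV-Neu and KPB1-A edgeR called 0 genes, with 32 and 8 at an unadjusted p under 0.05. With carboplatin plus paclitaxel all 41 genes had a higher mean in MMTV-Neu, with a median change of 0.52, and Rrm2 had 109, 185 and 105 CPM in treated tumours and 83.9, 58.9 and 85.5 CPM in untreated tumours. In KPB1-A all 41 had a lower mean, with a median change of -0.66, but 1 treated tumour stood apart: the mean of the 41 genes was 4.79, 6.25 and 6.19 log2 CPM in treated tumours and 6.29, 6.49 and 6.34 log2 CPM in untreated tumours. The same tumour had summed skeletal muscle markers of 12600 CPM and macrophage markers of 7050 CPM, against 1730 and 871 CPM of muscle and 536 and 518 CPM of macrophage markers in the other treated tumours. Untreated tumours had 89.9 to 170 CPM of muscle and 443 to 595 CPM of macrophage markers, and the part of these cells was not tested. Genes of 1 set share their tumours, so these counts are not 41 separate measurements.

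Anti-PD1 plus anti-CTLA4 left the median of the set near 0 over 12 models (36 treated and 41 untreated tumours; median log2 fold change 0.04). Of the 41 genes, 3 rose and 0 fell (6.62% of all genes were higher and 6.62% lower), 7 had an unadjusted p under 0.05 in either direction, and DESeq2 called 4 higher. Rfc4 rose by 0.29 (SE 0.09, adjusted p = 0.019), with 11.7, 28.6 and 76.2 CPM in treated tumours and 9.00, 23.3 and 55.1 CPM in untreated tumours at the lowest, median and highest. Rpa1 rose by 0.18 (SE 0.05, adjusted p = 0.0134), with 93.1, 153 and 251 CPM in treated tumours and 70.3, 137 and 212 CPM in untreated tumours. Mcm7 of the helicase ring rose by 0.12 (SE 0.04, adjusted p = 0.0473). None of the 3 was called in the models with adjacent untreated tumours, where edgeR called 0 genes and 2 had an unadjusted p under 0.05. Mcm5 (-0.04), Cdc6 (-0.01), Cdt1 (0.07), Cdc45 (0.01), Pola1 (0.04), Pcna (0.12), Rfc1 (0.04), Rrm2 (0.08) and Uhrf1 (-0.08) did not pass, at adjusted p from 0.155 (Pcna) to 0.965 (Cdc45). Cdc20 at 0.22 was the 1 of 21 mitosis genes that rose. All 10 skeletal muscle markers fell.

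The response to the antibodies differed between models for 23 genes (39.2% of all genes). Within models 32 tests were higher (6.5%) and 18 lower (3.66%), against 5.10% and 4.95% over all genes. T12 had 15 genes higher (17.1% of all genes), p53RB-426 13 higher (16.8%) and 3 lower, and 2208 8 lower (4.92%). In T12, Rfc4 had 24.0, 19.7 and 22.8 CPM in treated tumours and 9.82, 10.0 and 9.00 CPM in untreated tumours (1.14, SE 0.18, adjusted p = 0.0004). In p53RB-426, Rfc4 had 31.5, 36.9 and 35.0 CPM in treated tumours and 15.3, 15.2 and 14.9 CPM in untreated tumours (1.17, SE 0.09, adjusted p = 5.67e-06). The groups did not overlap in either model. Pcna in T12 had 216, 212 and 230 CPM in treated tumours and 137, 99.9 and 122 CPM in untreated tumours (0.81, SE 0.12, adjusted p = 0.000276). In 2208 Pole2 fell by 0.58 (SE 0.12, adjusted p = 0.0104). Other models had few calls of either sign, and the share of all genes called there is not given. These were 4 lower and 2 higher in p53RB-626, 2 of each in p53RB-624, and 1 lower in MMTV-PyMT.

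Library numbers of the antibody-treated tumours averaged 756 above untreated in T12, 871 in p53RB-426 and 147 in 2208, with no adjacent untreated tumour. Untreated tumours of 1 model can differ in the same genes when their library numbers lie apart. In KPB1-B, Rfc4 had 16.9, 11.9 and 21.9 CPM in the 3 untreated libraries with lower numbers, and 40.5, 45.3 and 36.0 CPM in the 3 with higher numbers. In p53RB-626, Pola1 had 41.2, 39.4 and 41.3 CPM in the 3 untreated libraries with lower numbers, and 63.5, 59.1 and 68.9 CPM in the 3 with higher numbers. These values were picked after they were seen, and the difference was not tested.

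The group means of library number of trametinib and erlotinib tumours differed by at most 61 within a model. Over 22 models (65 trametinib and 66 erlotinib tumours), 36 of the 41 genes were lower with trametinib (11.7% of all genes lower, 12.3% higher), with a median log2 fold change of -0.21. Cdc6 had a lowest, median and highest CPM of 2.40, 16.8 and 78.6 in trametinib tumours and 1.23, 21.8 and 92.6 in erlotinib tumours (-0.34, SE 0.09, adjusted p = 0.0014). Pole2 was lower by 0.33 (SE 0.06, adjusted p = 2.19e-05), Pola1 by 0.32 (SE 0.09, adjusted p = 0.00451) and Pcna by 0.31 (SE 0.05, adjusted p = 1.61e-06), whose mean was lower in 19 of 22 models. Mcm5 had 14.1, 85.6 and 288 CPM in trametinib tumours and 8.59, 104 and 240 CPM in erlotinib tumours (-0.28, SE 0.07, adjusted p = 0.00184). Cdt1 (-0.29, adjusted p = 3.41e-05), Cdc45 (-0.26, adjusted p = 0.00109), Uhrf1 (-0.26, adjusted p = 0.00775), Rrm2 (-0.22, adjusted p = 0.0437) and Rpa1 (-0.11, adjusted p = 0.017) also passed. The smallest called difference was that of Gins4 (-0.09, adjusted p = 0.0387). Rfc1 (-0.09, adjusted p = 0.0638), Tk1, Rfc3, Rfc4 and Prim2 did not pass. The count was 27 without 2208, 13 without the tumours of replicate 2 and 1 with 1 difference per model (26 at an unadjusted p under 0.05). Of the 21 mitosis genes edgeR called 0, with 11 at an unadjusted p under 0.05, and DESeq2 called 0 as well, while 26 of 40 other replication genes and 12 of 24 genes of G1 to S control were lower and 1 gene of that second list, Rb1, was higher. Of the fibroblast markers 7 of 8 were higher with trametinib, and 5 of 8 macrophage and 6 of 6 endothelial markers lower.

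The difference between the kinase inhibitors varied by model for all 41 genes (54.5% of all genes). Within models 163 tests were lower (18.1%) and 21 higher (2.33%), against 4.23% and 3.67% over all genes. The model 2208 had 40 genes lower with trametinib (10.7% of all genes), 2153 34 (14.1%), T11 33 (19.1%) and T11-APOBEC 30 (11.1%). Mcm5 in 2208 had 21.3, 19.2 and 18.0 CPM with trametinib and 81.8, 61.9 and 77.4 CPM with erlotinib (-1.94, SE 0.13, adjusted p = 3.22e-07). Pola1 had 18.4, 17.6 and 12.9 CPM in trametinib and 58.1, 56.4 and 50.9 CPM in erlotinib tumours of 2153, and it had 15.3, 11.1 and 12.8 CPM in trametinib and 46.6, 40.3 and 45.5 CPM in erlotinib tumours of T11. Neither pair overlapped. Among models without untreated tumours, 2250 had 10 genes lower (4.54% of all genes) and 2336 had 8 (4.07%), and Mcm5 in 2250 had 81.3, 87.6 and 84.1 CPM with trametinib and 123, 119 and 124 CPM with erlotinib. Summed fibroblast markers were 9490 to 12500 CPM with trametinib and 5640 to 5740 CPM with erlotinib in 2208, and 28300 to 35600 and 8350 to 9040 CPM in T11. Over the 22 models, the change of the set and the mean change of the fibroblast markers had a Pearson r of -0.66. Without 2153 and MMTV-Neu r was -0.52, and for trametinib against untreated it was -0.33 (16 models). These are descriptions over points that share their libraries.

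MMTV-Neu and 2225 went the other way, and KPB1-B and p53RB-626 did so in their mean level only. In KPB1-B the mean of the 41 genes was 5.617, 5.359 and 5.519 log2 CPM in trametinib tumours and 5.15, 5.435 and 4.963 in erlotinib tumours. There edgeR called 0 genes, and 0 had an unadjusted p under 0.05. In p53RB-626 that mean was 6.174, 6.036 and 6 log2 CPM with trametinib and 5.866, 6.048 and 5.878 with erlotinib. In that model edgeR called 0 genes, and 11 had an unadjusted p under 0.05 in either direction. In MMTV-Neu 18 genes were higher with trametinib than with erlotinib (6.66% of all genes) and 1 lower. Rrm2 had 29.41, 12.49 and 29.77 CPM in trametinib and 6.36, 5.64 and 5.29 CPM in erlotinib tumours (1.99, SE 0.31, adjusted p = 0.00609), and Tk1 10.8, 7.49 and 15.4 CPM in trametinib and 3.91, 3.61 and 3.42 CPM in erlotinib tumours. The lower gene was Rfc2, with 22.9, 23.8 and 27.9 CPM in trametinib and 30.4, 67.6 and 64.9 CPM in erlotinib tumours. In 2225 the mean of all 41 genes was higher with trametinib, and 2 passed the test: Gins1, with 29.0, 24.2 and 29.0 CPM in trametinib and 17.2, 13.2 and 14.4 CPM in erlotinib tumours, and Tk1, with 99.6, 87.4 and 91.5 CPM in trametinib and 63.9, 55.4 and 53.6 CPM in erlotinib tumours. In p53RB-426 Lig1, the ligase that joins Okazaki fragments, was higher (0.28) and 2 genes were lower.

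Against carboplatin plus paclitaxel, the antibody-treated tumours had higher levels of the set. Over 16 models (48 tumours each), 23 of 41 genes were higher and none lower (8.85% of all genes higher, 11.6% lower), with a median log2 fold change of 0.17. Mcm6 had 82.6, 194 and 543 CPM with the antibodies and 47.3, 163 and 373 CPM with carboplatin plus paclitaxel at the lowest, median and highest (0.34, SE 0.07, adjusted p = 0.000224). Gins1 was higher by 0.31 (SE 0.08, adjusted p = 0.00381), Rfc4 by 0.28 (SE 0.07, adjusted p = 0.00194) and Pcna by 0.27 (SE 0.05, adjusted p = 3.43e-05). Cdt1 (0.25, adjusted p = 0.00543), Rrm2 (0.24, adjusted p = 0.0172), Mcm5 (0.21, adjusted p = 0.0266) and Rpa1 (0.18, adjusted p = 0.00388) passed as well, whereas Cdc6 (0.18, adjusted p = 0.0853), Pola1 (0.16, adjusted p = 0.156), Cdc45 (0.11, adjusted p = 0.271), Rfc1 (0.10, adjusted p = 0.0578) and Uhrf1 (0.09, adjusted p = 0.437) did not. By role, 9 of 10 clamp and processing genes and 8 of 10 licensing genes were among the 23. Of the lists, 9 of 40 other replication genes and 4 of 21 mitosis genes were higher, Cdkn1a was lower (-1.18), and all 10 skeletal muscle markers were lower. Of the markers of other cells, 5 of 8 of macrophages, 4 of 8 of fibroblasts, 4 of 5 of adipocytes, 2 of 8 of T and NK cells and 2 of 5 of B cells were lower as well, and their part was not tested. The count was 37 without MMTV-Neu (10.2% of all genes higher) and 15 on the authors' normalized values (3.17%). It was 8 without the tumours of replicate 1 (4.29%) and 4 without those of replicate 3 (1.95%). With 1 difference per model (limma) or no model term (edgeR) it was 0 (0% and 0.219% of all genes higher). There 18 and 11 genes had an unadjusted p under 0.05.

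The difference varied between models for 40 genes (64.6% of all genes), with 100 within-model tests higher (15.2%) and 3 lower (0.457%), against 6.70% and 6.95% over all genes. MMTV-PyMT had 19 genes higher (9.57% of all genes), T12 18 (18.4%) and 4T1 17 (19.3%). In MMTV-PyMT, T12, 4T1 and p53RB-426 the library numbers of both arms lay more than 100 apart. Library number and treatment cannot be told apart in any of these models. In MMTV-PyMT, Mcm6 had 107, 103 and 119 CPM with the antibodies and 47.3, 64.7 and 71.1 CPM with carboplatin plus paclitaxel, and Gins1 15.6, 12.0 and 16.0 CPM with the antibodies and 4.64, 6.61 and 7.45 CPM with carboplatin plus paclitaxel. Neither gene overlapped. In 4T1, Gins1 rose by 1.07 (SE 0.31, adjusted p = 0.0196), but 1 antibody-treated tumour overlapped, with 26.5, 11.5 and 25.4 CPM against 9.34, 12.0 and 9.46 CPM with carboplatin plus paclitaxel. The 2 high tumours were those with fewest genes detected: the antibody libraries of 4T1 held 187.6 M, 183 M and 153.2 M counts over 16944, 20763 and 17439 genes, against 29.59 M, 26.03 M and 23.7 M counts over 21361, 21736 and 21257 genes with carboplatin plus paclitaxel. Library numbers lay 1171 apart in the mean, summed epithelial markers were 4250 to 5880 CPM with the antibodies and 1550 to 2360 CPM with carboplatin plus paclitaxel, and the part of these differences was not tested. Pole (-0.76) and Dnmt1 (-0.50) were lower in 4T1, and Cdc6 (-0.35) was lower in p53RB-426, where 15 genes were higher (11.9% of all genes). In MMTV-Neu all 41 genes had a lower mean with the antibodies, where edgeR called 0 and 35 had an unadjusted p under 0.05.

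The change of the 41 genes ran beside that of the mitosis genes. Over models, the median change of the set and of the mitosis list had a Pearson r of 0.99 with trametinib, 0.95 with erlotinib, 0.88 with carboplatin plus paclitaxel and 0.83 with the antibodies, each against untreated tumours, and the untreated levels an r of 0.93 (16 models). Both lists were measured in the same libraries. Within the set, the changes with trametinib were most alike for Mcm5, with a median r of 0.89 with the other genes over 16 models, and least alike for Rfc1 (0.54) and Gins4 (0.63).

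The labels give a median survival for each model and treatment. In 2208 it was 58 days with trametinib and 21 days untreated, in 2153 43 and 10 days, in T11 35 and 14 days, and in T11-APOBEC 42 and 15 days. In E0771 it was 25 days in both groups, and in p53RB-426 12 days with trametinib and 9 days untreated. Over 16 models the log2 ratio of survival and the median change of the 41 genes had a Pearson r of -0.63 and a Spearman rho of -0.57, and r was -0.61 without 2208 and MMTV-Neu, the models farthest from the median change. For trametinib against erlotinib r was -0.54 and rho -0.41 (22 models), and r was -0.42 without the 2 farthest models. For erlotinib against untreated r was -0.47, and 0.00 without MMTV-Neu and KPB1-B, so it rests on those models. For carboplatin plus paclitaxel against untreated r was -0.16 and rho -0.17 (16 models), and r was -0.58 without KPB25L and MMTV-Neu, the 2 farthest models. For the antibodies against untreated r was -0.23 and rho -0.25 (12 models), and r was -0.355 without 2208 and 2153. For the antibodies against carboplatin plus paclitaxel r was -0.18 and rho 0.10 (16 models), and r was -0.09 without MMTV-Neu and KPB1-A. These are descriptions over models: each point shares its tumours with the comparisons above, the survival values have no error in the labels, and no test was made.

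**Figure D5:**
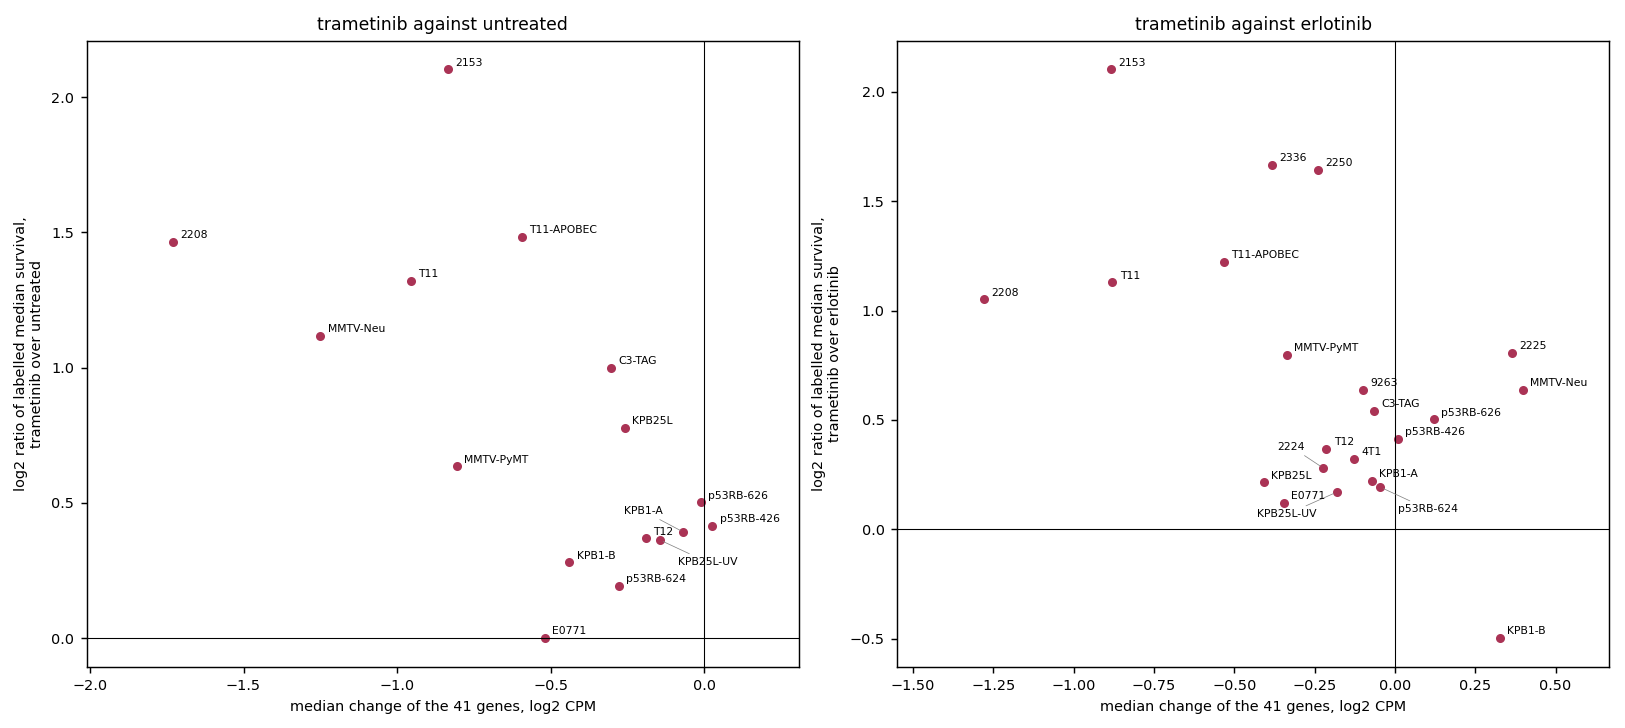
Log2 ratio of the labelled median survival (vertical axis) against the median change of the 41 genes in log2 CPM (horizontal axis), 1 point per model, for trametinib against untreated (left, 16 models) and against erlotinib (right, 22 models). The points 2208, MMTV-Neu, T11 and 2153 lie to the upper left in the left panel, and MMTV-Neu and 2225 lie to the right in the right panel.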

How the data were processed

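Poly(A) RNA of 309 tumours was sequenced, and per the labels the tumours were frozen and homogenised before a TruSeq mRNA library was made. Per the submitters' processing notes, STAR, SAMtools, Picard and Salmon were used on mm10. Their versions are not given. The deposited raw table holds estimated counts per gene symbol, of which 8.35% of values were not whole; they were rounded. The authors' second deposited table holds a normalized signal, which was checked to equal 1000 times the estimated count over its library's upper quartile (the 75th percentile of nonzero values). Columns not used numbered 0, and no libraries held identical values (highest Pearson r 0.99937).

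Tumours were grouped by title, and the 3 KPB25L-UV tumours of the carboplatin plus paclitaxel arm carry library names of KPB25L. Genes were filtered by edgeR's filterByExpr, scaled by TMM and tested with edgeR 4.0.16 (glmQLFit and glmQLFTest; limma 3.58.1, R 4.3.3), with the model as a factor, over models, and per model with all its arms in 1 fit. Calls needed a Benjamini-Hochberg adjusted p under 0.05 over all genes tested. Log2 CPM had a prior count of 2, and changes by model are differences of mean log2 CPM. Alternatives included DESeq2 1.42.0, limma on the normalized signal (pseudocount 1) and adjacent untreated libraries. Positions came from GENCODE M21 and promoters from RefSeq (GRCm38.p6). Counts simulated for trametinib against untreated over models recovered 92.5% of genes changed by 0.5 on the log2 scale, with 2.12% of calls false. At a change of 1, 100% were recovered, with 5.21% of calls false. Simulated within p53RB-624, 2% of genes changed by 1 were recovered, with 33.3% of calls false. At a change of 2 it was 95.5%, with 3.54% false. These simulations gave every gene the same preset spread and every model the same change. That spread was not estimated from these tumours. In the deposited counts of p53RB-624, 12 of the 41 genes were called with trametinib. The simulated shares therefore do not measure what the tests of these tumours can find. A model with 0 calls may still hold changes that were not called.

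Given in full were Mcm5, Cdc6, Cdt1, Cdc45, Pola1, Pcna, Rfc1, Rrm2, Uhrf1, Rpa1 and the 3 called genes at each end, and per comparison the 3 models with most calls and any with calls the other way. The genes, lists and tests were chosen with earlier results of these data known. Tests over models treat tumours of 1 model as independent, and intervals over libraries cover only the spread between tumours.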

Additional observations from a re-analysis of the deposited data

Results flagged for a closer look

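In groups of 4 to 10 untreated tumours, single tumours stood apart from the rest of their model by Dixon's test. Each test took 1 gene in 1 model, and 50 tests were run. Chance alone passes about 1 of 20 such tests. Genes of 1 model share their tumours, so these tests are not independent. In KPB1-B, 1 untreated tumour had the lowest Cdc6 (21.7 CPM, others 37.7 to 49.5), Cdc45 (21.3 CPM, others 44.8 to 56.0) and Rfc1 (77.1 CPM, others 111 to 121), and another had the lowest Cdt1 (29.2 CPM, others 58.8 to 73.9). In p53RB-626, 1 untreated tumour had the lowest Cdc6 (33.4 CPM, others 40.6 to 44.5). In K14-TRT, the same untreated tumour had the highest Pcna (348 CPM, others 210 to 263) and the lowest Uhrf1 (99.9 CPM, others 139 to 194).

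The change differed between models by the interaction test for 41 of the 41 genes with trametinib against untreated, 40 with erlotinib, 39 with carboplatin plus paclitaxel and 23 with the antibodies, and for 41 with trametinib against erlotinib and 40 with the antibodies against carboplatin plus paclitaxel.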

How the results depend on the processing

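With trametinib against untreated, 39 to 41 of the 41 genes were lower when 1 replicate number was left out, 33 against adjacent untreated tumours, 41 without 2208, 28 with 1 difference per model and 21 with no model term. Its within-model calls (242 lower, 7 higher) were 151 to 239 lower and 1 to 6 higher with a replicate left out, 106 lower against adjacent tumours and 2 higher with no filter. With erlotinib, the 32 lower genes became 8 to 29 with a replicate left out, 4 against adjacent tumours, 14 without MMTV-Neu, 4 without MMTV-Neu and KPB1-B, 0 with no model term (6 at an unadjusted p under 0.05) and 0 with 1 difference per model (8); within models, 56 to 118 lower and 0 to 6 higher with a replicate left out, 40 lower against adjacent tumours and 0 higher with no filter. With carboplatin plus paclitaxel, the 5 lower genes became 0 to 10 with a replicate left out, 8 with DESeq2's size factors, 9 with DESeq2, 2 with no filter, 20 against adjacent tumours, 14 without MMTV-Neu, 1 without KPB1-A and KPB1-B, and 0 with no model term (11 at an unadjusted p under 0.05), 1 difference per model (1) or the normalized table, where 4 were higher and the median of all genes moved to 0.10; within models, 14 to 57 lower and 3 to 32 higher with a replicate left out, 39 and 21 with no filter, and 35 and 3 against adjacent tumours.

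With the antibodies against untreated, the 3 higher genes became 0 to 5 with a replicate left out, 5 without MMTV-Neu, 6 on the normalized table, and 0 against adjacent tumours, with untreated tumours of the same set label, with no model term or with 1 difference per model (2, 5, 0 and 0 at an unadjusted p under 0.05); within models, 11 to 32 higher and 1 to 20 lower with a replicate left out, 0 and 1 against adjacent tumours, and 9 lower with no filter. For trametinib against erlotinib, the 36 lower genes became 13 to 36 with a replicate left out, 0 with no model term (4 at an unadjusted p under 0.05) and 1 with 1 difference per model; within models, 91 to 161 lower and 0 to 21 higher with a replicate left out, and 13 higher with no filter. For the antibodies against carboplatin plus paclitaxel, the 23 higher genes became 4 to 23 with a replicate left out, 37 without MMTV-Neu, 15 on the normalized table, 0 with no model term (11 at an unadjusted p under 0.05) and 0 with 1 difference per model (18); within models, 17 to 96 higher and 1 to 4 lower with a replicate left out, 62 higher with no filter and 5 lower with DESeq2's size factors.

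All 41 genes differed between untreated models with any replicate left out (41 to 41), and both untreated pairs of models kept 0 calls. Of the named genes, 752 values kept direction and call, 161 lost the call, 20 gained it and none changed sign. No paired analysis was possible because the replicate numbers follow only the order of deposition. The settings that leave out 2208, KPB25L-UV, or the models high in muscle markers were chosen after seeing the data. The share of all genes called also changed between settings, and it is given above for only part of them. The causes of these shifts were not tested.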
